A study of Drosophila melanogaster with 8 samples.

Results

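Adult females were compared with female larvae at the third instar in Drosophila melanogaster that carry the chromosome 2 inversion In(2)A4 on both homologues. The comparison used 4 of the 8 libraries of the series, those of A4 adults (2 libraries) and A4 larvae (2 libraries), and ran over every gene row of the deposited tables. Both stages carried the genotype In(2)A4/In(2)A4, both were labelled female, and both were kept at 18 °C on standard food. The adults were 2 to 3 days old. The larvae were taken from a stock in which the inversion is balanced over CyO-GFP, and the absence of fluorescence was the sign of homozygosity, and no such selection is described for the adults. The series studies position effect variegation, the mosaic silencing of genes that a rearrangement brings near heterochromatin. Its other 4 libraries come from A12/A12 females at the same stages, 2 larval and 2 adult, which stand for the wild type in its design and are used here to ask where the A4 stage difference departs from theirs. RNA came from whole animals. The labels do not say how many animals made up a library or whether the 2 libraries of a group came from separate cultures, and the p-values then speak only of spread among these particular libraries, which may be technical.

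A third-instar larva is a feeding and growing animal. Its fat body fills the blood with storage proteins, its salivary glands make the glue that later fixes the pupa to a surface, and its gut and epidermis are specialised for digestion and for a soft, stretchable cuticle. Pulses of ecdysone then drive metamorphosis, in which most larval tissues are broken down and the adult body is built from imaginal cells. A young adult female has compound eyes, flight muscle and a pair of ovaries in which nurse cells load the oocyte with RNA and follicle cells build the eggshell.

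Expression was given as FPKM, a count of fragments divided by model length and by library size. Each library listed 15296 gene models, of which 8612 and 9121 reached 1 FPKM in A4 larvae replicates 1 and 2, and 8982 and 8973 in A4 adults replicates 1 and 2. Read totals are not in the tables. The width of the deposited confidence bounds at 489 weakly expressed genes put the depth of the 4 libraries at 1.0, 1.14, 1.12 and 0.89 relative to larval replicate 1. Across tested genes, the correlation was 0.959 between the larval libraries, 0.967 between the adult libraries and 0.645 to 0.664 between stages. A value listed as exactly 0 can be a failed estimate, since genes that every cell uses also stand at 0 in some libraries, and 944 of the tested genes had a 0 in at least 1 A4 library. A log2 change below is adults minus larvae on log2(FPKM + 1) after each library was centred on its median tested gene. The value after ± is its standard error with 2 libraries a stage. It comes from 1 fit of all 8 libraries, with the spread shared over the A4 and A12 groups and moderated across genes. So it does not measure the spread of the A4 libraries alone. Adding 1 shrinks the change of weak genes, and the centring that follows shifts genes near 0 downward in the adult libraries. Before centring the larval libraries had medians of 2.91 and 2.99 and the adult libraries 3.95 and 3.88, and the median gene was 0.87 higher in adults, so every change is relative to the median gene. A gene counts as higher or lower where limma's adjusted p was below 0.05. In whole animals, fewer cells of a type and less RNA per cell cannot be told apart.

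The larval library of replicate 2 held RNA that is typical of males. roX2, a noncoding RNA that males use for dosage compensation, stood at 0.338 and 34.9 FPKM in larval replicates 1 and 2 and at 0.0248 and 0.328 in the adults. roX1, its partner RNA, stood at 2.07 and 12.4 FPKM in larvae and at 0.0665 and 0.0426 in adults. The summed FPKM of 49 testis genes was 18.9 in larval replicate 1 and 166.0 in replicate 2, against 27.3 and 30.1 in adults, and 3, 25, 5 and 4 of those genes reached 1 FPKM. Accessory gland genes summed to 7.33, 2.17, 2.64 and 1.24 FPKM in the same order. The part that this RNA has in any single result was not tested, and counts without this library are given where they move by over 1.5 times.

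Of 9679 tested genes, 5177 (53.5%) differed between A4 adults and A4 larvae. Adults were higher for 2273 genes (23.5%) and lower for 2904 (30%), and the median change over all tested genes was -0.09. Counts of list members below are to be read against these shares. After centring, the 2 adult libraries lay wholly above or below the 2 larval ones for 7696 genes (79.5%), so that separation of the stages at a named gene does not set it apart. The larger changes were more often downward. A log2 change of 3 or more was seen for 259 higher and 628 lower genes, and a change of 5 or more for 85 and 241. Without larval replicate 2 the test called 1977 genes higher and 2594 lower. The balance between the directions depends on the scale. Uncentred values gave 5397 higher genes (55.8%) and 1345 lower (13.9%), and quantile normalization gave 3041 (31.4%) and 2280 (23.6%). Of the genes called lower, 717 had a mean FPKM that was not lower in adults, and their calls state only that they rose less than the median gene.

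**Figure D1:**
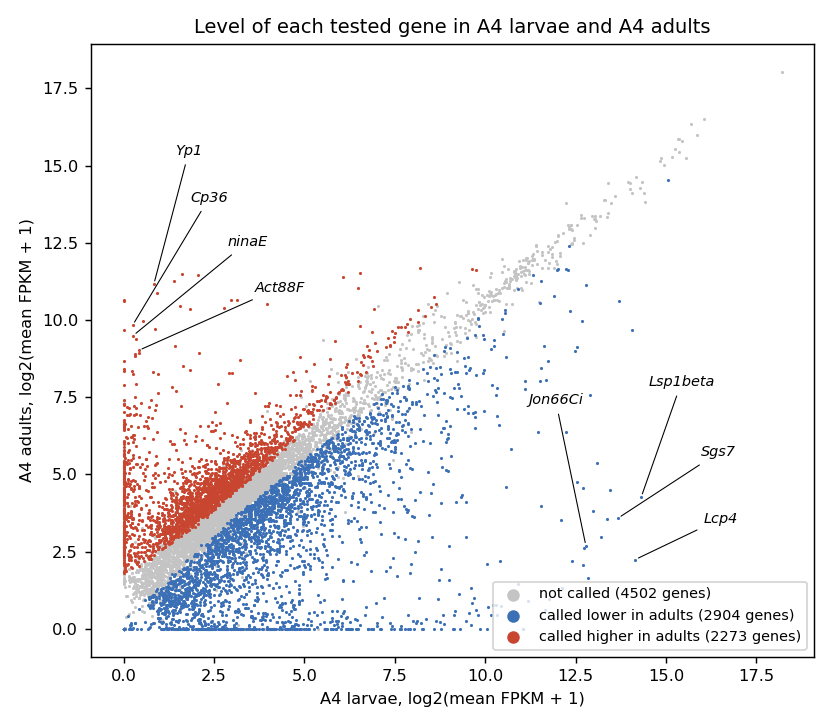
Each point is 1 of 9679 tested genes, placed by the log2 of its mean FPKM plus 1 over the 2 larval libraries (horizontal) and the 2 adult libraries (vertical), with the test's call in colour (2273 higher, 2904 lower). Yolk, eggshell, photoreceptor and flight muscle genes sit at the upper left, and storage protein, glue, cuticle and gut protease genes at the lower right.

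Genes of egg production held many of the large upward changes. All 4 genes of yolk formation rose, with a median log2 change of 8.88. Yp1, 1 of the yolk proteins that the fat body and follicle cells secrete, stood at 0.724 and 0.843 FPKM in the larval libraries and at 2842.4 and 1705.9 in the adult libraries. Both adult libraries were far above both larval ones, and the log2 change was 9.31 ± 0.25 (adjusted p = 2.1e-06). Yp2 went from 1.55 and 1.69 FPKM to 3053.3 and 1907.3, a change of 8.89 ± 0.22. Yp3 went from 1.85 and 2.32 FPKM to 3334.7 and 2353.2, a change of 8.87 ± 0.23. The receptor that takes yolk into the oocyte, yl, followed at 0.328 and 0.384 FPKM in larvae and 518.3 and 464.8 in adults, a change of 7.54 ± 0.13. Adult replicate 1 was the higher of the pair for all 4 genes. In dm3 coordinates Yp2 (chrX:9945049-9946669) and Yp1 (chrX:9947885-9949531) are neighbours, and Yp3 (chrX:13653578-13655200) lies apart from them.

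Eggshell genes showed the same direction with more spread between the adult libraries. Of 24 chorion, vitelline membrane and follicle cell genes, 22 rose and 2 were called lower, with a median of 4.46. For 11 of them 1 stage was listed at 0 in both libraries, and the median of the others was 4.37. Cp36, a chorion protein, stood at 0 and 0.379 FPKM in larvae and at 1382.9 and 437.1 in adults (8.41 ± 0.63, adjusted p = 7.68e-05). Cp38, its neighbour on X, was listed at 0 in both larval libraries and at 1263.6 and 359.6 FPKM in the adults. The same replicate was again the higher, by more than for the yolk genes.

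A second cluster of chorion genes lies on 3L between positions 8719891 and 8725699 in dm3, in the order Cp18, Cp15, Cp19 and Cp16. Cp15 stood at 1.25 and 5.16 FPKM in larvae and at 4540.5 and 1076.4 in adults (8.25 ± 0.82). Cp16 stood at 0.891 and 0 FPKM in larvae and at 1374.5 and 631.1 in adults (8.44 ± 0.53). Cp18 stood at 0.68 and 0.99 FPKM in larvae and at 1225.7 and 428.0 in adults (7.67 ± 0.46). All 3 were higher in both adult libraries than in either larval one. Cp19 was listed at 0 in both larval libraries and at 2022.2 and 1135.0 FPKM in the adults. Vm34Ca, a vitelline membrane protein, was listed at 0 in both larvae and at 432.6 and 214.1 FPKM in adults. Both members called lower act in follicle cells in the patterning of the embryo. pip, a sulfotransferase of the dorsal-ventral axis, stood at 13.6 and 17.4 FPKM in larvae and was listed at 0 in both adults. tsl, which acts in terminal patterning, stood at 10.5 and 10.8 FPKM in larvae and at 12.7 and 10.6 in adults, and its call (-0.84 ± 0.18) was lost without adult replicate 2 and turned to 0.12 without centring.

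Germline RNA was higher in adults as a group. Of 37 germline and maternal genes, 24 rose and 2 were called lower, with a median of 2.45, or 1.39 for the 29 that were not at 0 throughout 1 stage. osk, whose product founds the germ plasm, stood at 0.163 and 0.0991 FPKM in larvae and at 120.9 and 124.8 in adults (5.81 ± 0.15, adjusted p = 2.1e-06). alphaTub67C, the maternal alpha-tubulin, went from 0.11 and 0.394 FPKM to 198.3 and 166.0 (6.23 ± 0.18). BicC, a translational repressor of the oocyte, went from 0.181 and 0.258 FPKM to 157.2 and 141.0 (5.98 ± 0.15). In each of these the adult libraries lay close together and well clear of the larvae. mtrm, an inhibitor of Polo kinase in meiosis, rose from 0.273 and 0.184 FPKM to 86.0 and 68.0 (5.02 ± 0.17). nos and pgc, a pair of germ cell regulators, were listed at 0 in both larval libraries and at 90.5 and 89.2, and 71.4 and 53.4 FPKM in the adults. dhd, a thioredoxin of the female germline, was among the 15 largest increases of all genes, from 2.1 and 1.79 FPKM to 1729.1 and 1084.8 (7.9 ± 0.27). The members called lower were tud (38.0 and 34.4 against 39.5 and 48.3 FPKM) and capu (7.99 and 6.81 against 10.1 and 8.68 FPKM). Neither had a lower mean FPKM in adults, both turned to a positive change without centring, and the count of lower genes was 0 without larval replicate 1, 1 without adult replicate 1 and 1 without adult replicate 2.

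Genes of the piRNA pathway, which silences transposons in the germline, rose in 17 of 19 cases with none lower and a median of 2.22. piwi was listed at 0 in both larval libraries and at 27.1 and 26.3 FPKM in the adults. aub, a second PIWI protein, went from 0.14 and 0.4 FPKM to 15.7 and 14.9 (2.73 ± 0.23, adjusted p = 0.000128). krimp, a Tudor-domain protein of the nuage, went from 0.292 and 0.396 FPKM to 21 and 23.7 (3.16 ± 0.15). For the helicase gene spn-E the values were 0.81 and 0.773 FPKM in larvae and 21 and 25 in adults (2.78 ± 0.17). Larval levels of these genes were near or below 1 FPKM. No larval library reached an adult one, though the stages did not overlap at most tested genes either.

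Cell cycle genes were called higher almost throughout. Of 32 DNA replication genes 28 rose, and of 31 mitotic genes 30 rose, with no member of either list lower and medians of 1.58 and 1.64. With any A4 library left out, 26 to 30 replication genes and 26 to 29 mitotic genes were called higher. CycB, a mitotic cyclin, stood at 6.52 and 6.45 FPKM in larvae and at 315.4 and 311.9 in adults (4.43 ± 0.2, adjusted p = 8.97e-06). CycA, its companion, went from 5.48 and 6.99 FPKM to 169.0 and 149.9 (3.51 ± 0.18). cort, an activator of the anaphase-promoting complex in female meiosis, was listed at 0 in both larvae and at 46.3 and 36.4 FPKM in adults. Orc1, of the origin recognition complex, went from 1.63 and 2.47 FPKM to 39.4 and 42.8 (2.84 ± 0.16). Mcm5, of the replicative helicase, went from 6.22 and 7.78 FPKM to 83.0 and 70.0 (2.32 ± 0.16). fzy, the mitotic activator of the same complex as cort, stood at 0 and 5.64 FPKM in larvae and at 38.2 and 34.1 in adults, and its call (2.88 ± 0.74, adjusted p = 0.0159) was lost without either adult library.

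Cytoplasmic ribosomal protein genes did not move as a group in this test. Of 86, 1 was higher and 3 were lower, with a median of -0.35, and the sign of that median depends on the scale (0.61 without centring, 0.54 with quantile normalization, where 35 were higher). Their summed FPKM made up 17.2% and 18.9% of the sum over gene models of 200 bases or more in the larval libraries, and 31.2% and 27.0% in the adult libraries. The exception was RpS5b, which encodes an ovary-enriched form of the small subunit protein S5. It stood at 5.45 and 6.33 FPKM in larvae and at 1684.6 and 1017.4 in adults (6.61 ± 0.25, adjusted p = 4.73e-06). The widely used form RpS5a stood at 2434.5 and 3494.8 FPKM in larvae and at 2717.4 and 2208.5 in adults. Its call as lower (-1.21 ± 0.32, adjusted p = 0.0183) did not hold without centring. No ribosomal protein gene was lower when larval replicate 2 or either adult library was left out, and 2 were without larval replicate 1.

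**Figure D2:**
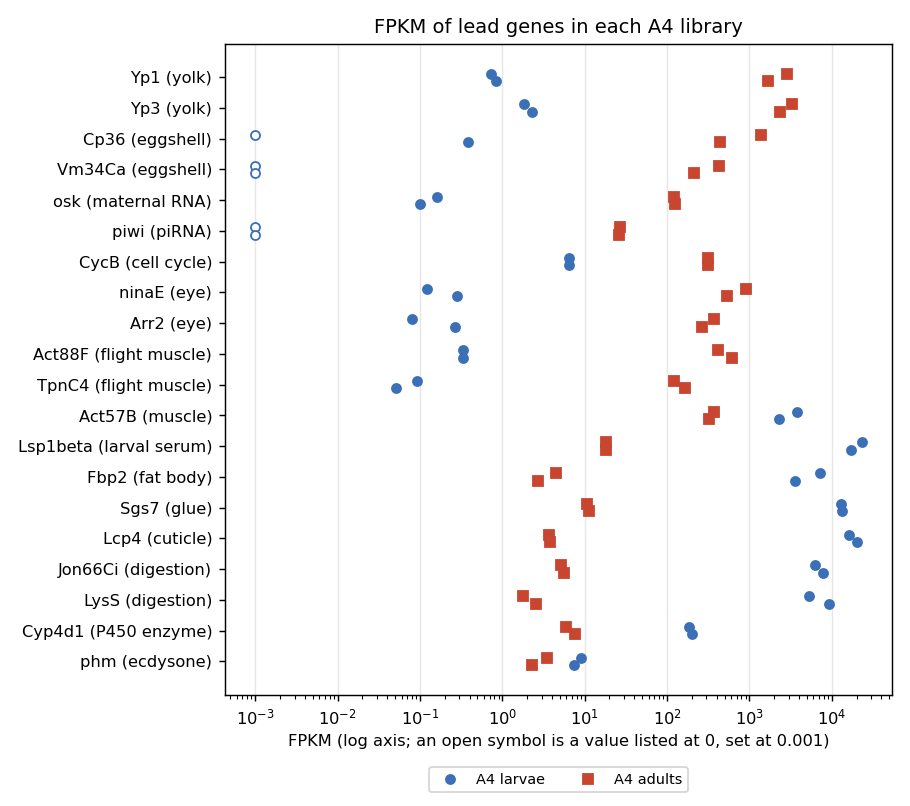
FPKM of 20 genes in each of the 4 A4 libraries on a log axis, with circles for larvae and squares for adults; open symbols are values listed at 0. For each gene shown the 2 adult libraries lie to 1 side of the 2 larval libraries, from Yp1 (0.724 and 0.843 against 2842.4 and 1705.9) to Lcp4 (16122.2 and 20159.2 against 3.66 and 3.82).

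Photoreceptor genes also rose as a group. Of 26 phototransduction genes 21 were higher and none lower, with a median of 2.31. ninaE, the opsin of the outer photoreceptors, stood at 0.121 and 0.28 FPKM in larvae and at 912.1 and 529.3 in adults (8.22 ± 0.28, adjusted p = 3.66e-06). Arr2, an arrestin that shuts rhodopsin off, went from 0.0804 and 0.264 FPKM to 374.5 and 268.9 (7.13 ± 0.28). Its relative Arr1 went from 1.1 and 2.34 FPKM to 242.3 and 170.7 (5.31 ± 0.29). Both adult libraries exceeded both larval ones at each, and at most tested genes the stages likewise did not overlap. ninaC, a myosin with a kinase domain, rose from 0.169 and 0.0685 FPKM to 60.6 and 48.7 (4.67 ± 0.21). Rh4, an opsin of the inner photoreceptors, went from 0 and 0.389 FPKM to 56.8 and 41.0 (4.42 ± 0.26). Pdh, the photoreceptor dehydrogenase of the retinoid cycle, was listed at 0 in both larvae and at 103.5 and 81.5 FPKM in adults. The genes together made up 0.00509% and 0.00423% of the FPKM sum of larger models in larvae and 0.235% and 0.188% in adults.

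Odorant-binding proteins held members with large changes each way. Of the 27 tested among 50 in the tables, 7 rose and 15 fell, against 23.5% higher and 30% lower over all tested genes. Obp19d stood at 0.254 and 0.831 FPKM in larvae and at 114.3 and 94.2 in adults (5.15 ± 0.28, adjusted p = 1.71e-05). Obp57c went from 0 and 0.141 FPKM to 71.8 and 71.7 (5.13 ± 0.22). Obp99b moved the other way, from 9906.2 and 7545.0 FPKM in larvae to 51.1 and 29.6 in adults (-8.72 ± 0.66), the highest larval level among the named members. Obp56a fell from 229.3 and 250.1 FPKM to 39.2 and 33.3 (-3.66 ± 0.31). Only 2 of 177 odorant, gustatory and ionotropic receptor genes were abundant enough to test, and 1 of them, Gr94a, was called lower (-1.13 ± 0.21) at 1.72 and 1.66 against 1.61 and 1.19 FPKM, a call lost without centring.

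Muscle genes changed in both directions, also within the actin family. Of 28 tested, 7 rose and 16 were called lower, with a median of -1.23, against 23.5% higher and 30% lower over all tested genes. Quantile normalization gave 7 and 10, and uncentred values gave 8 and 11 with a median of -0.26. Act88F, the actin of the indirect flight muscle, stood at 0.334 and 0.338 FPKM in larvae and at 420.4 and 613.3 in adults (7.61 ± 0.56, adjusted p = 6.92e-05). Act79B, an actin of adult tubular muscle, went from 1.73 and 1.65 FPKM to 528.3 and 607.1 (6.76 ± 0.34). Act57B, an actin of larval body wall muscle, went from 3749.9 and 2268.1 FPKM to 371.9 and 321.8 (-4.03 ± 0.43, adjusted p = 0.000352). Act87E, another muscle actin, went from 222.9 and 241.0 FPKM to 84.8 and 66.5 (-2.58 ± 0.28). The stages did not overlap at any of the 4 actins, as at most tested genes.

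Troponin C genes showed a like exchange. TpnC4, the main form of flight muscle, went from 0.0925 and 0.0511 FPKM to 122.9 and 167.1 (6.11 ± 0.25). TpnC41C rose from 0.0757 and 0.183 FPKM to 31.7 and 39.5 (4.05 ± 0.22). TpnC73F fell from 159.2 and 77.4 FPKM to 11.1 and 14.6 (-3.99 ± 0.38), and TpnC47D from 83.1 and 61.5 to 9.89 and 11 (-3.63 ± 0.37). So the 4 genes form a pair that is high in adults and a pair that is high in larvae. fln, flightin of the thick filament, rose from 0.48 and 0.763 FPKM to 122.3 and 163.2 (5.5 ± 0.34). In every fit that left out an A4 library 7 members were called higher, and the count of lower genes ran from 11 without adult replicate 1 to 15 without larval replicate 2.

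Genes of oxidative phosphorylation were called higher in 20 of 31 cases with none lower, by modest amounts (median 0.8). Cyt-c-p, cytochrome c, stood at 113.4 and 120.1 FPKM in larvae and at 777.3 and 793.2 in adults (1.78 ± 0.27, adjusted p = 0.00169). blw, a subunit of ATP synthase, went from 374.9 and 387.1 FPKM to 1648.9 and 1790.1 (1.21 ± 0.21). sesB, the mitochondrial ADP/ATP carrier, went from 249.7 and 232.1 FPKM to 1064.9 and 1046.2 (1.17 ± 0.23). The stages stood apart at all 3, as at 79.5% of all tested genes. The count was fragile, with 5 genes higher without adult replicate 2, 6 without adult replicate 1, 9 without larval replicate 1 and 8 without larval replicate 2, and all 31 without centring. Of 14 glycolysis genes 1 rose and 1 fell, while 10 were higher without centring. The 1 that rose was Hex-C, a hexokinase, from 3.35 and 3.62 FPKM to 71.5 and 66.4 (3.0 ± 0.14). The 1 that fell was ImpL3, lactate dehydrogenase, from 193.0 and 187.6 FPKM to 16.5 and 18.2 (-4.35 ± 0.26).

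Storage, glue and cuticle proteins of the larva held several of the large falls. All 5 larval serum and fat body genes fell, with a median of -10.81. Lsp1beta, a subunit of the larval serum hexamer, stood at 23371.9 and 17335.6 FPKM in larvae and at 18.1 and 18.4 in adults (-10.99 ± 0.6, adjusted p = 1.79e-05). Lsp2, another storage hexamer, went from 10549.4 and 10709.0 FPKM to 13 and 8.57 (-10.81 ± 0.29). Lsp1gamma went from 10758.2 and 11483.9 FPKM to 20.6 and 22.5 (-9.91 ± 0.3). These 3 were abundant in both larval libraries and low in both adult ones. Lsp1alpha fell from 5703.1 and 3104.7 FPKM to a mean of 10.5 ± 0.711 (SD, n = 2) in adults (-9.47 ± 1.02), and Fbp2, a fat body protein, from 7161.2 and 3613.3 to 4.55 and 2.73 (-11.09 ± 0.78). Together the 5 genes took 7.74% and 4.75% of the FPKM sum of larger gene models in the larval libraries and 0.00722% and 0.00834% in the adult libraries.

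All 10 tested glue genes of the salivary gland fell, with a median of -8.43, or -10.45 for the 6 that were not at 0 in both adults. Sgs7 stood at 12891.3 and 13214.1 FPKM in larvae and at 10.6 and 11.4 in adults (-11.05 ± 0.33, adjusted p = 2.85e-06). Sgs8, beside it on 3L, went from 1342.4 and 1232.2 FPKM to 0.723 and 0 (-10.9 ± 0.34). Sgs5 went from 1158.9 and 1216.1 FPKM to 0.814 and 0.587 (-10.41 ± 0.19). Among the pre-glue genes, ng3 fell from 1040.2 and 1484.8 FPKM to 0.641 and 0.749 (-10.48 ± 0.35), and ng1 stood at 168.2 and 184.2 FPKM in larvae and at 0 in both adults. Both adult libraries were far below both larval ones at each of these genes. All 6 tested Eig71E genes, a cluster induced by ecdysone, were called lower. Only Eig71Ee was abundant, at 199.9 and 143.4 FPKM in larvae against 0.123 and 0 in adults (-8.29 ± 0.28). With the filter set on the A4 libraries it was the only member tested. The other 5 were below 1 FPKM in every A4 library, and 1 member of the list was lower without centring, 2 when libraries were scaled before the pseudocount, 3 without larval replicate 2 and 3 without adult replicate 2.

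**Figure D3:**
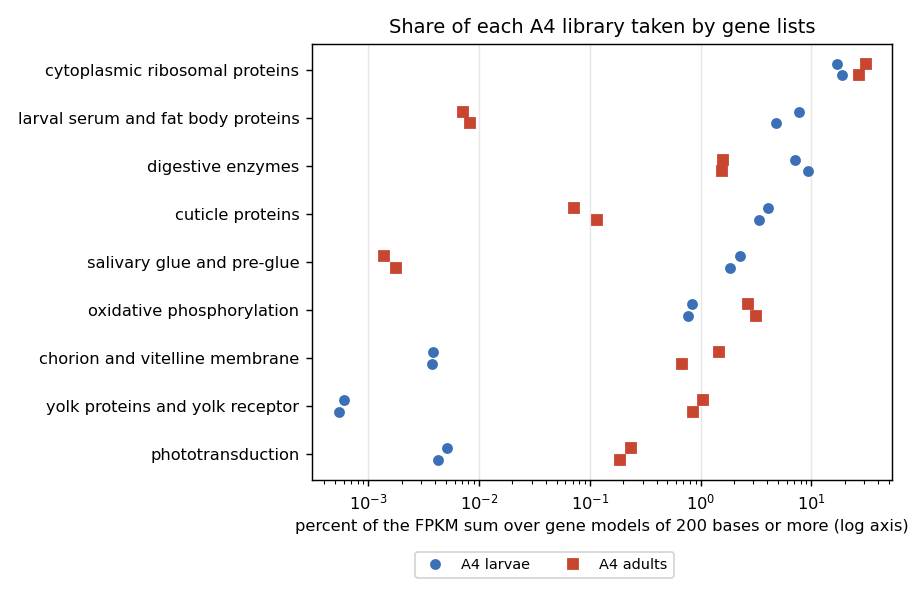
Share of the FPKM sum over gene models of 200 bases or more that 9 gene lists took in each A4 library, on a log axis. Larval serum genes fell from 7.74% and 4.75% to 0.00722% and 0.00834%, while yolk genes went from 0.000598% and 0.000537% to 1.06% and 0.847%.

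Cuticle proteins fell for the most part, and a few rose. Of 59 tested among 127 in the tables, 41 fell and 8 rose, with a median of -3.4, or -2.88 for the 45 that were not at 0 throughout 1 stage. Over all tested genes 23.5% were higher and 30% lower, so a smaller share of this list than of all genes rose. Lcp4, a larval cuticle protein, had the largest fall among genes above 0 at both stages, from 16122.2 and 20159.2 FPKM to 3.66 and 3.82 (-12.86 ± 0.54, adjusted p = 6.77e-06). It lies with Lcp1, Lcp2 and Lcp3 in a cluster on 2R between 4317801 and 4326000 in dm3. Lcp3 fell from 7702.5 and 5585.2 FPKM to 1.39 and 4.94 (-11.73 ± 0.62), and Lcp1 from 1856.6 and 2000.9 to 1.68 and 1.76 (-10.43 ± 0.45). Lcp2 stood at 585.2 and 543.6 FPKM in larvae and at 0 in both adults, so the whole cluster was high in larvae. Acp65Aa, an adult cuticle protein, moved the other way, from 0.231 and 1.46 FPKM to 93.8 and 210.8 (5.39 ± 0.84, adjusted p = 0.002). Cpr49Ae, a member of the large chitin-binding cuticle family, rose from 0.526 and 0.62 FPKM to 63.2 and 124.8 (4.87 ± 0.44). Adult replicate 2 was the higher of the pair for both, the reverse of the eggshell genes.

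Enzymes that make and remodel chitin fell in 23 of 27 cases and rose in 1, with a median of -2.8. kkv, the chitin synthase of the epidermis, went from 27.6 and 21.8 FPKM to 0.447 and 0.821 (-4.94 ± 0.26, adjusted p = 1.6e-05). Cht3, a chitinase, fell from 45.5 and 42.3 FPKM to 0.439 and 0.463 (-5.91 ± 0.14). verm, a chitin deacetylase, fell from 136.5 and 108.9 FPKM to 11.1 and 14.5 (-4.13 ± 0.31). The exception was Cht8, from 0.41 and 0.265 FPKM to 11.1 and 13.3 (2.34 ± 0.34). Genes of tanning and pigment were mixed, with 13 of 27 lower and 3 higher and a median of -0.88 that turned to 0.08 without centring. All tested genes had 30% lower and 23.5% higher. Ddc, the dopa decarboxylase of cuticle hardening, fell from 55.9 and 25.5 FPKM to 11.2 and 14.5 (-2.46 ± 0.4). The members that rose most were yellow-g (0 in both larvae, 167.4 and 35.9 FPKM in adults) and yellow-g2 (0.198 and 0 against 185.9 and 52.7 FPKM), a pair that acts in the eggshell, with adult replicate 1 the higher as for the chorion genes. The third was b, which makes beta-alanine, at 8.64 and 3.63 against 30.3 and 42.7 FPKM. The list had 1 higher gene without adult replicate 1 and 1 without larval replicate 2.

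Digestive enzymes fell in 29 of 44 cases and rose in 2, with a median of -2.54. Jon66Ci, a serine protease of the gut, stood at 6214.7 and 7910.4 FPKM in larvae and at 5.23 and 5.6 in adults (-11.06 ± 0.34, adjusted p = 2.86e-06). Jon66Cii, next to it on 3L, fell from 1187.3 and 1572.8 FPKM to 0.778 and 0.573 (-10.64 ± 0.46). LysS, a lysozyme of the gut, fell from 5365.3 and 9196.9 FPKM to 1.8 and 2.54 (-12.09 ± 0.85). Stages stood far apart at each. alphaTry, a trypsin, rose from 131.0 and 459.2 FPKM to 3278.0 and 3296.5 (2.78 ± 0.61, adjusted p = 0.00834), and the maltase Mal-A7 from 1.64 and 1.78 to 49.3 and 58.3 (3.37 ± 0.36). The list took 7.05% and 9.25% of the FPKM sum of larger models in larvae and 1.59% and 1.56% in adults. Its count of higher genes went from 2 to 4 when either A12 larval library was left out, which changes only the shared estimate of spread, and was 8 without centring and 5 with quantile normalization.

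Of 98 cytochrome P450 and glutathione transferase genes, 57 were lower and 13 higher, with a median of -1.32, while uncentred values gave 40 lower and 31 higher. Shares over all tested genes were 30% lower and 23.5% higher. Summed over the whole list, FPKM was 3631.0 and 4521.8 in larvae and 5585.7 and 5218.3 in adults. Cyp4d1 fell from 185.8 and 199.7 FPKM to 5.87 and 7.7 (-5.61 ± 0.3, adjusted p = 1.66e-05), and GstD6 from 9.1 and 18.2 to 0.524 and 0 (-4.46 ± 0.49). Cyp4g1, which makes cuticular hydrocarbons in oenocytes, rose from 93.0 and 83.7 FPKM to 2094.3 and 2122.3 (3.6 ± 0.19, adjusted p = 1.67e-05). Cyp6a19 was listed at 0 in both larvae and at 69 and 60.9 FPKM in adults.

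Of 9 tested genes of ecdysone synthesis 6 were lower and none higher, with a median of -2.2, or -0.94 for the 7 not at 0 throughout 1 stage, and uncentred values gave 5 lower and 3 higher. Shares over all tested genes were 30% lower and 23.5% higher. Summed over the whole list, FPKM was 242.0 and 270.0 in larvae and 509.0 and 389.0 in adults. shd, which makes the final hydroxylation to active hormone, fell from 31.2 and 25.1 FPKM to 1.43 and 1.43 (-4.54 ± 0.18, adjusted p = 5.14e-06). phm, an earlier hydroxylase of the prothoracic gland, fell from 9.0 and 7.43 FPKM to 3.45 and 2.3 (-2.22 ± 0.27). sro, another gland enzyme, stood at 20.4 and 24.6 FPKM in larvae and at 0 in both adults. Npc1a, of cholesterol transport, stood at 20.3 and 18.0 against 18.6 and 20.3 FPKM, and its lower call (-0.94 ± 0.15) turned to a change of 0.02 without centring. Leaving out either A12 adult library, which changes only the shared spread, added 1 higher gene to this list.

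Among 21 genes of ecdysone reception and response 12 fell and 3 rose, with a median of -1.02, while uncentred values gave 8 lower and 6 higher with a median of -0.06. ImpE2, an ecdysone-inducible gene of imaginal discs, fell from 21 and 27.6 FPKM to 0.0658 and 0.079 (-5.51 ± 0.22). EcR, the receptor, fell from 20.3 and 18.2 FPKM to 7.09 and 7.49 (-2.25 ± 0.2), and br, an early response transcription factor, from 8.02 and 3.44 to 0.479 and 0.918 (-2.87 ± 0.42). The 3 that rose were transcription factors, Eip93F from 0.156 and 0.195 FPKM to 7.08 and 7.77 (1.88 ± 0.19), ftz-f1 from 1.45 and 0.938 to 8.65 and 8.82 (1.2 ± 0.23) and Blimp-1 from 0.757 and 0.346 to 6.12 and 5.56 (1.19 ± 0.22). Genes of the juvenile hormone pathway were called lower in 6 of 10 cases with a median of -0.96. The median was 0.01 without centring, with 2 higher and 2 lower, and 3 were lower without larval replicate 1 or without adult replicate 1.

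Immune genes were lower in 23 of 40 cases and higher in 2, with a median of -2.02, while uncentred values gave 15 lower and 7 higher with a median of -1.06. Among all tested genes 30% were lower and 23.5% higher. The summed FPKM of the whole list did not fall, at 4731.2 and 1726.3 in larvae and 4941.4 and 4593.8 in adults. Dpt, the antibacterial peptide diptericin, fell from 262.3 and 272.3 FPKM to 7.1 and 2.09 (-6.71 ± 0.74, adjusted p = 0.000408). DptB fell from 372.4 and 213.4 FPKM to 32.4 and 8.83 (-4.93 ± 0.81), and AttA, an attacin, from 46.9 and 20.2 to 6.28 and 0.229 (-4.37 ± 0.88). The adult libraries differed from each other severalfold at these peptides, with replicate 1 the higher. PGRP-SA and PGRP-SD, receptors for peptidoglycan, stood at 25.5 and 22.8 and at 17.1 and 17.0 FPKM in larvae, and both were listed at 0 in both adults. Both increases were drosomycin-like genes. Drsl5 rose from 1.67 and 1.43 FPKM to 252.5 and 198.0 (5.5 ± 0.2), and Drsl4 was listed at 0 in both larvae and at 86.5 and 108.7 FPKM in adults. The count of lower genes was 14 without adult replicate 2 and 16 without larval replicate 1, where 3 and 5 were higher.

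**Figure D4:**
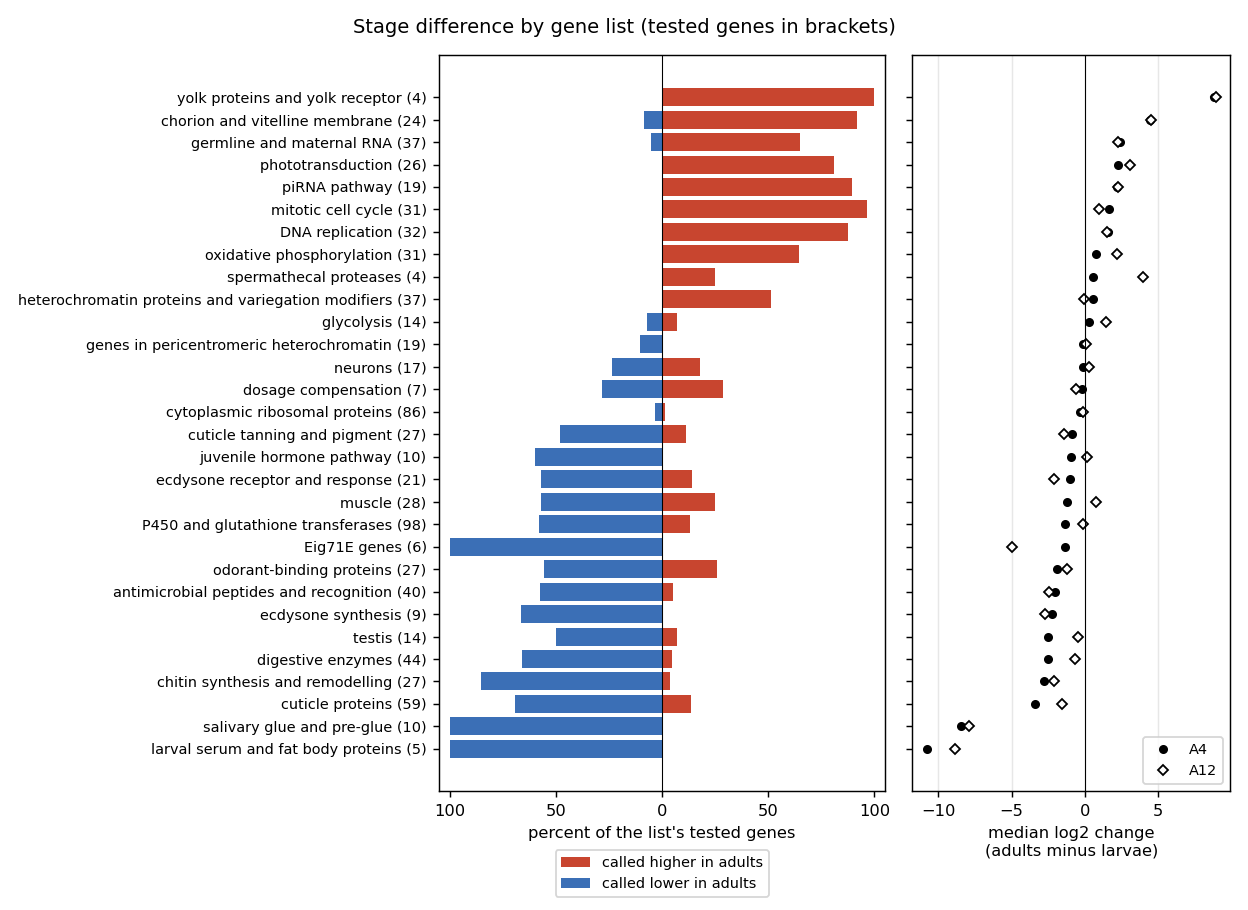
Left, percent of the tested genes of each list with at least 4 tested genes called higher (right of the axis) or lower (left of the axis) in A4 adults. Right, the median log2 change of each list in A4 (filled circles) and A12 (open diamonds), from 8.88 for yolk genes to -10.81 for larval serum genes in A4. Against this, 23.5% of all tested genes were higher and 30% lower.

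Chromatin genes were examined because the genotype is studied for variegation. In a list of 37 genes that encode heterochromatin components or modify variegation, 19 rose and none fell, with a median of 0.55, against 23.5% of all genes higher. The count was 12 without adult replicate 2 and 13 without larval replicate 1, and 35 without centring. The largest increases were at the genes of 2 subunits of CAF-1, the factor that assembles nucleosomes on replicating DNA. The first went from 1.66 and 1.93 FPKM to 26.7 and 24.6 (2.29 ± 0.14, adjusted p = 2.59e-05), and the second from 1.79 and 1.39 to 19.0 and 18.9 (1.99 ± 0.21). Su(var)3-7, a zinc finger protein of heterochromatin, rose from 4.57 and 3.48 FPKM to 19.6 and 21 (1.13 ± 0.2). The gene of HP1a, the protein that gives heterochromatin its structure, stood at 24.1 and 33.8 FPKM in larvae and at 64.6 and 47.8 in adults, a change of -0.03 ± 0.22 relative to the median gene (adjusted p = 0.925).

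Of 19 tested genes that reside in pericentromeric heterochromatin 2 were lower and none higher, with a median of -0.08, and uncentred values gave 13 higher. Those 2 were Cht3 and spok, a gland enzyme of ecdysone synthesis at 1.56 and 1.15 FPKM in larvae and at 0 in both adults. lt, a vesicle trafficking gene of the 2L heterochromatin, stood at 6.05 and 6.87 FPKM in larvae and at 11.2 and 12 in adults (-0.2 ± 0.14, adjusted p = 0.265). rl, a MAP kinase gene of the 2R heterochromatin, stood at 7.39 and 6.76 against 14.1 and 11.6 FPKM (-0.19 ± 0.16, adjusted p = 0.355). Both were higher in adults before centring, by 0.76 and 0.77 on the log2 scale, and close to the shift of the median gene. w, the eye pigment transporter, stood at 3.04 and 3.21 FPKM in larvae and at 2.84 and 2.39 in adults (-1.16 ± 0.15, adjusted p = 0.000912), and this call was lost without centring. Of 7 dosage compensation genes msl-3 and msl-1 rose (1.1 ± 0.19 and 0.91 ± 0.25), while roX1 (-3.57 ± 0.63, adjusted p = 0.0033) and msl-2 (-0.78 ± 0.21) were called lower. These shares are near the 23.5% higher and 30% lower over all tested genes. msl-2 stood at 1.11 and 1.01 FPKM in larvae and at 1.16 and 1.53 in adults, so its call states only that it rose less than the median gene. Without larval replicate 2, in which male-type RNA was found, roX1 changed by -2.55. roX2 was not called (adjusted p = 0.0713). The list had 1 higher gene without larval replicate 2 or either adult library, and 1 lower gene without adult replicate 1.

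Of 17 neuronal genes 3 were higher and 4 lower, with a median of -0.08, against 23.5% higher and 30% lower over all tested genes, and without centring 11 were higher and none lower. Gad1, which makes the transmitter GABA, rose from 1.76 and 1.3 FPKM to 9.0 and 10.3 (1.11 ± 0.23), and Syt1, a calcium sensor of synaptic vesicles, stood at 4.5 and 3.18 against 2.7 and 2.79 FPKM (-1.32 ± 0.21). The count of lower genes was 1 when either adult library was left out and 2 when either larval library was. Of 4 spermathecal protease genes, which the sperm store of mated females makes, 1 was called, Send1, at 0 in both larvae and at 3.48 and 3.31 FPKM in adults, and none was called when any A4 library was left out. All 4 were higher without centring, with quantile normalization, with a pseudocount of 0.1 and when libraries were scaled before the pseudocount. Of 49 testis genes 14 were abundant enough to test, and 7 were called lower and 1 higher. Mst84Dc (0 and 7.67 FPKM in larvae), S-Lap1 (0.149 and 12) and S-Lap4 (0.0688 and 7.96) passed the filter only through larval replicate 2. That library holds the male-type RNA, so these calls are no measure of the stage. In the fit of the A4 libraries alone 1 testis gene was lower and 1 higher. For Mst87F, a sperm tail protein gene, the values were 0.618 and 14.0 FPKM in larvae and 0 and 0.193 in adults. The count of lower testis genes was 4 without larval replicate 2, 10 without larval replicate 1, 1 without adult replicate 1 and 2 without adult replicate 2.

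Chromosome arms differed little apart from X and 4. Of 1558 tested genes on X, 29.3% were higher and 24.5% lower, with a median of 0.08. The arms 2L, 2R, 3L and 3R had 22.8%, 21.6%, 22.2% and 23.6% of genes higher and 29.6%, 31.6%, 32.3% and 30.6% lower. On the fourth chromosome 5 of 69 genes were higher (7.25%) and 27 lower (39.1%), with a median of -0.37. These shares are a description, since genes of an arm are not replicates.

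Several of the strongest changes belonged to genes without a described role in the tables used here. CG16826 had the second largest increase among genes detected at both stages, from 0.926 and 0.899 FPKM to 1985.2 and 1772.0 (8.98 ± 0.33). CG18628 rose from 3.02 and 2.13 FPKM to 1311.5 and 1294.5 (7.56 ± 0.34), and CG5107 from 0 and 0.466 to 477.7 and 476.6 (7.66 ± 0.18). CG14645 was listed at 0 in both larvae and at 1617.7 and 1579.2 FPKM in adults. CG14265 fell from 2707.3 and 4881.0 FPKM to 0.521 and 0 (-12.49 ± 0.35), and CG34282 from 2594.8 and 3846.2 to 0.481 and 0.552 (-11.99 ± 0.3). CG42500 was the most abundant of this kind in larvae, at 8997.1 and 10027.4 FPKM against 4.05 and 9.76 in adults (-11.29 ± 0.51). CG34172, which RefSeq names COX7AL2, rose from 0 and 0.542 FPKM to 596.5 and 738.2 (8.1 ± 0.32).

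The stage difference was then set against that of A12/A12 females. In A12 the same fit called 2621 genes higher and 2828 lower in adults, and 3727 genes were called in the same direction in both genotypes, against 182 in opposite directions. The difference between the A4 and A12 changes was called for 1508 genes (15.6%), 574 with the A4 change above that of A12 and 934 below it. Before centring the median gene was higher in adults by 0.87 in A4 and by 0.48 in A12. Centring therefore lowers A4 changes relative to those of A12 and moves this split towards the genes below. Without centring 1704 differences were called. Of these, 1084 were also called in A4. The count ran from 671 without A4 adult replicate 2 to 1508 without A12 larval replicate 2, and was 799 without A4 adult replicate 1, 874 without A12 larval replicate 1 and 932 without A12 adult replicate 2. Yolk, eggshell, piRNA and replication genes had like medians in A4 and A12 (8.88 and 8.99, 4.46 and 4.52, 2.22 and 2.29, 1.58 and 1.56), and 0 of 4, 2 of 24, 0 of 19 and 2 of 32 members had a called difference.

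**Figure D5:**
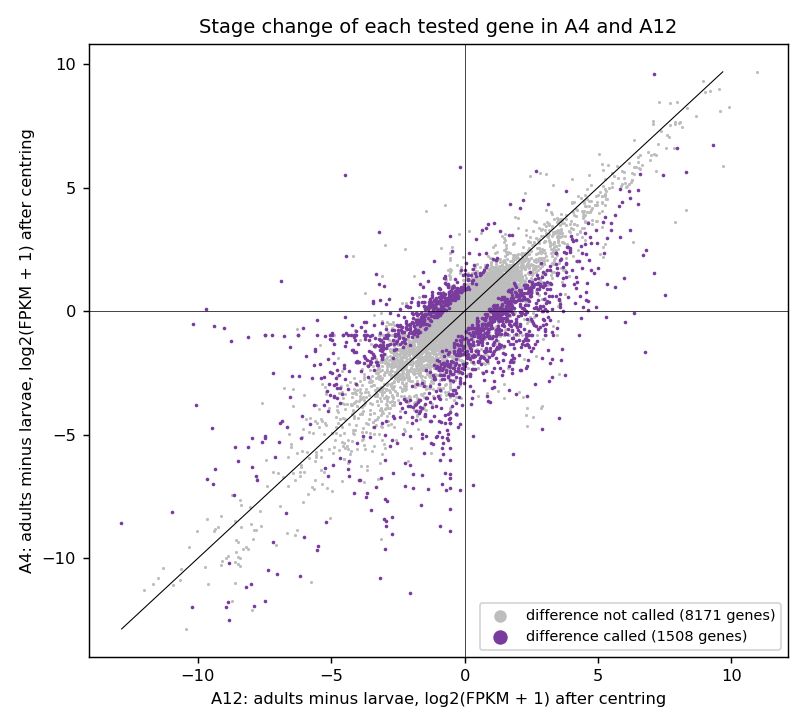
Stage change of each of 9679 tested genes in A12 (horizontal) and A4 (vertical), as adults minus larvae on log2(FPKM + 1) after centring; the diagonal marks equal change. The 1508 genes with a called difference lie off the diagonal, 934 of them below it.

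Other groups departed. Among muscle genes the median change was -1.23 in A4 and 0.8 in A12, and 11 of 28 had a called difference. TpnC47D illustrates it with 83.1 and 61.5 FPKM in A4 larvae but 2.14 and 4.78 in A12 larvae, while the adults stood at 9.89 and 11 in A4 and at 12.1 and 8.96 in A12. Its change in A4 was lower than in A12 by 4.52 on the log2 scale (-4.52, adjusted p = 0.00364). Among P450 and transferase genes the medians were -1.32 and -0.09, with 32 of 98 called, and Cyp6a23 stood at 349.7 and 520.6 FPKM in A4 larvae against 37.5 and 64.7 in A12 larvae. Among digestive enzymes they were -2.54 and -0.67, with 18 of 44 called. Among oxidative phosphorylation genes they were 0.8 and 2.19, with 15 of 31 called, and among cuticle proteins -3.4 and -1.58, with 25 of 59. In all of these the A4 median lay below that of A12 on the centred scale, which itself lowers A4 changes relative to A12. Ecdysone response genes went the other way, with medians of -1.02 and -2.07 and 6 of 21 called. So did the Eig71E genes, with -1.34 and -5.0 and 5 of 6 called. Those 5 were below 1 FPKM in every A4 library and passed the filter only through the A12 larvae, where they were high. Their count is therefore no measure of how far A4 departs from A12. ImpE2 stood at 21 and 27.6 FPKM in A4 larvae against 354.7 and 202.2 in A12 larvae, and Eig71Ea at 0.325 and 0.469 against 69.6 and 57.2. At TpnC47D, Cyp6a23, ImpE2 and Eig71Ea it was the larval levels that differed most between genotypes. Mcm10, a replication factor, stood at 0.126 and 0.22 FPKM in A4 larvae and at 0.901 and 0.761 in A4 adults, so both adult libraries were higher. All of these values lie below the pseudocount of 1, and the centred change was not called (-0.32 ± 0.23, adjusted p = 0.28). In A12 it stood at 2.05 and 1.06 FPKM in larvae and at 22.8 and 13.3 in adults. The difference of the changes was -2.66 (adjusted p = 0.00429), and its size depends on the pseudocount because the A4 values are so low.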

How the data were processed

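The authors deposited FPKM values for all 8 libraries. Per the submitters' processing notes, reads were handled with TopHat 0.6, Bowtie, Bowtie2 and Cufflinks on build dm3, in an order and with settings not given in the sources used here. Strand is likewise not given. Per the labels' protocols, Ribo-Zero removal of ribosomal RNA preceded TruSeq preparation. Gene models that carried a failed or high-data flag anywhere (17) were dropped. Models averaging 1 FPKM or more across all libraries were tested on log2(FPKM + 1) after median centring. One limma 3.58.1 fit (R 4.3.3) of the 4 groups used eBayes with a trend (4 residual and 2.66 prior degrees of freedom), with Benjamini-Hochberg adjustment over all 9679 genes. The fit was tested on simulated data. Centring after the pseudocount shifts genes near 0 downward in libraries with higher medians.

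Gene models under 200 bases held 58.3% to 65.3% of the FPKM sum of the A4 libraries, and shares of the FPKM sum leave them out. Loci that share a symbol (105 symbols) were kept apart. Overlapping or near-identical genes may share reads. Named genes were the 15 largest changes each way among genes above 0 at both stages, the 6 most abundant each way listed at 0 at the other stage, up to 6 called members a direction of each gene list, the 6 smallest p-values of the difference between A4 and A12, and roX1, roX2, msl-2, the Yp and Lsp genes, w, lt, rl, Mcm10 and the gene of HP1a. The comparison, lists and named genes were chosen with earlier results of these data known. Members of the lists were picked by known function. Newer names of CG genes come from RefSeq. Replicate numbers did not pair libraries, since the correlation of replicate 1 minus 2 was -0.062 between A4 larvae and A4 adults. Alternatives were other pseudocounts, filters, scalings and eBayes options, the A4 libraries alone, a block for replicate number, fits without each library in turn, and other thresholds. Python 3.11.15 with pandas 2.3.3, numpy 2.4.6 and matplotlib 3.10.9 made the tables and figures. A table of the authors' log2 ratios between genotypes was not used here.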

Additional observations from a re-analysis of the deposited data

Results flagged for a closer look

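The 6 called genes with the smallest p-values of the difference between the A4 and A12 stage changes are given with their values, each difference being the A4 change minus the A12 change. Drsl5, a drosomycin-like gene, rose in A4 and fell in A12, where larvae stood at 3068.1 and 1930.0 FPKM and adults at 166.4 and 146.4, a difference of 9.99 (adjusted p = 8.74e-05). The adult levels of the genotypes were close, and the larval levels were 1.67 and 1.43 FPKM in A4.

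For the other 5 at least 1 group was listed at 0 in both libraries, so the fitted difference depends on the pseudocount, and such a 0 may be a failed estimate. CG12522 (-6.22, adjusted p = 0.00014) stood at 102.6 and 133.5 FPKM in A4 larvae, at 1.32 and 0.948 in A12 larvae and at 0 in all adults. CG12272, now Strump, of the WASH complex (6.64), was at 7.76 and 8.36 FPKM in A4 adults and at 14.0 and 13.6 in A12 larvae, and at 0 in the other 2 groups. CG10219, now SdhD, of mitochondrial complex II (-6.87), stood at 60.7 and 55.8 FPKM in A4 larvae and at 178.5 and 178.5 in A4 adults, while A12 larvae were listed at 0 and A12 adults at 262.5 and 262.5. arg, arginase (-7.67), was at 10.8 and 15.4 FPKM in A4 larvae and at 12.2 and 8.06 in A12 adults, and at 0 in the other 2 groups. CG3814, now Lfg (-6.63), was at 75.6 and 69.9 FPKM in A4 larvae and at 0 elsewhere. In each of these groups the 2 libraries were alike.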

How the results depend on the processing

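The counts of 2273 higher and 2904 lower genes stayed within 1.5 times under every alternative run but the next 4. Without centring they were 5397 and 1345. An adjusted p of 0.01 gave 1463 higher genes, a minimum change of 1 on the log2 scale gave 1239, and no filter on low values gave 7390 lower genes. Replicate number as a block gave 2280 higher and 2940 lower genes and 1525 called differences. Leaving out 1 library gave 1542 to 2260 higher genes, 2213 to 2906 lower genes, and 671 to 1508 called differences between genotypes. The fit of all 4 groups supplies the spread for a lone library. Libraries scaled before the pseudocount, chosen after seeing the data, gave 2434 and 2798.

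Without centring 14 named genes reversed, to 0.12 for tsl, 0.27 for tud, 0.30 for capu, 0.09 for RpS29, 0.13 for RpLP1, 0.02 for Npc1a, 0.09 for Jheh1, 0.13 for Syx1A, 0.26 for Csp, 0.39 for Rop, 0.18 for msl-2, 0.76 for lt, 0.77 for rl and 0.94 for the gene of HP1a. By construction that setting adds the shift of the median gene. Of 229 named genes called, 44 lost the call with the sign of the change kept under at least 1 of 22 alternatives. The reversals above are counted apart from these losses. Depth limits weak genes most. Of 120 tested genes under 1 FPKM in every A4 library 62 were called lower, where the centring of log values outweighs the measured level.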
